A study of Mus musculus with 4 samples.

Results

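The 51 genes described here are mouse orthologues of genes whose variants cause hereditary hearing loss in humans. They were taken from a fixed list of symbols, whatever their level, and are 51 of the 34866 genes in a table of transcript abundance from otic vesicles. The otic vesicle is the closed epithelial sac from which the whole inner ear, cochlea and balance organs alike, develops. It was dissected from C57/BL6 mouse embryos at embryonic day 11.5. Each genotype gave 2 libraries, named WT 1 and WT 2 for wild type and KO 1 and KO 2 for the Meis2 mutant, and values per library are printed in that order. Meis2 encodes a homeodomain transcription factor, and the comparison asks which transcripts differ when it is mutated. The sources used here do not give the Meis2 allele, how it was driven, or the number of embryos in a library. The p-values therefore measure how far these libraries spread, some of which may be technical.

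Hearing depends on hair cells, which carry a bundle of actin-filled stereocilia on their upper surface. Extracellular tip links join neighbouring stereocilia, and when the bundle is deflected they pull on mechanotransduction channels. Myosin motors and scaffold proteins, several of them mutated in Usher syndrome, build and hold this machinery, and supporting cells tied by gap and tight junctions keep the ionic conditions that it needs. At the vesicle stage the sac has not yet formed differentiated cochlear hair cells. Markers for the cells in the dissections were compared first. All 15 otic epithelium genes were at a mean of 1 TPM or more (TPM is a length-scaled transcript level in which each library sums to 1000000). Their sums were 1826, 1674, 1402 and 1509 TPM, lower in both KO libraries. Of 14 hair cell genes that are no members, 11 stayed under 1 TPM in every library. The whole list summed to 4.17, 3.73, 3.51 and 5.66 TPM. Atoh1, which specifies hair cells, reached at most 0.178 TPM, Pou4f3, which maintains them, at most 0.484 TPM, and Ocm, a calcium buffer of outer hair cells, was listed at 0 in all 4 libraries. The dissections also held transcripts of other cells. The summed levels of neuron genes, 521, 804, 425 and 1159 TPM, were highest in KO 2, those of mesenchyme genes, 966, 790, 1381 and 898 TPM, were highest in KO 1, and those of erythroid genes, 10842, 25952, 13474 and 15326 TPM, were highest in WT 2. Endothelium (170 to 219 TPM), macrophage (44.4 to 72.8), neural crest and glia (129 to 153), surface ectoderm (12.4 to 28.8) and skeletal muscle (20.7 to 30.6) lists summed to less. In such bulk samples fewer cells of a type and less RNA per cell cannot be told apart.

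**Figure D1:**
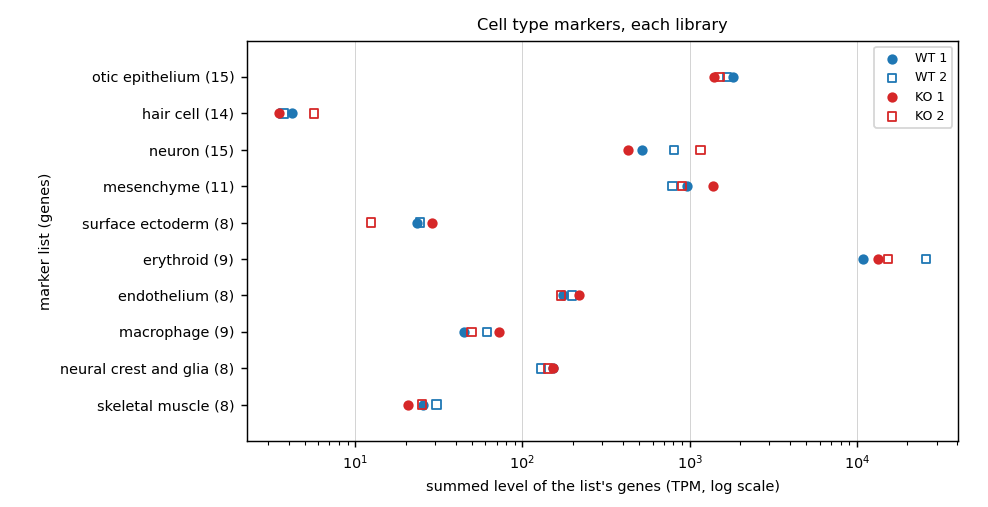
Summed level of 10 cell type marker lists (TPM, log axis) in each of the 4 libraries; the number of genes in a list is in parentheses, blue is WT, red is KO, filled circles are replicate 1 and open squares replicate 2. Hair cell genes sum to 3.51 to 5.66 TPM, while neuron, mesenchyme and erythroid sums differ between libraries of the same genotype.

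At embryonic day 11.5 most of these genes were already transcribed. In WT, 32 of 51 (62.7%) had a mean of at least 1 TPM, close to the 61.7% of all protein-coding genes in the table, and their median level was 6.05 TPM against 4.73 TPM for coding genes. Counted by level, 3 were at 100 TPM or more, 16 at 10 to 100, 13 at 1 to 10, 11 at 0.1 to 1 and 8 below 0.1 TPM. KO gave 34 genes at 1 TPM or more: the same 32 plus Clic5 and P2rx2. Across single libraries, 31 genes were at 1 TPM or more in all 4, 15 were below it in all 4, and 5 (Gjb6, Clic5, Pjvk, Esrrb and P2rx2) lay on both sides. The count at this line changes little with where it is drawn, 37 genes at 0.5 TPM and 28 at 2 TPM. Depth is unknown for TPM, so a value of 0 is given only as listed: 7 genes were at 0 in some library, and Ptprq and Loxhd1 in both WT libraries. Every level of the list is in the plot of the 51 genes by role.

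**Figure D2:**
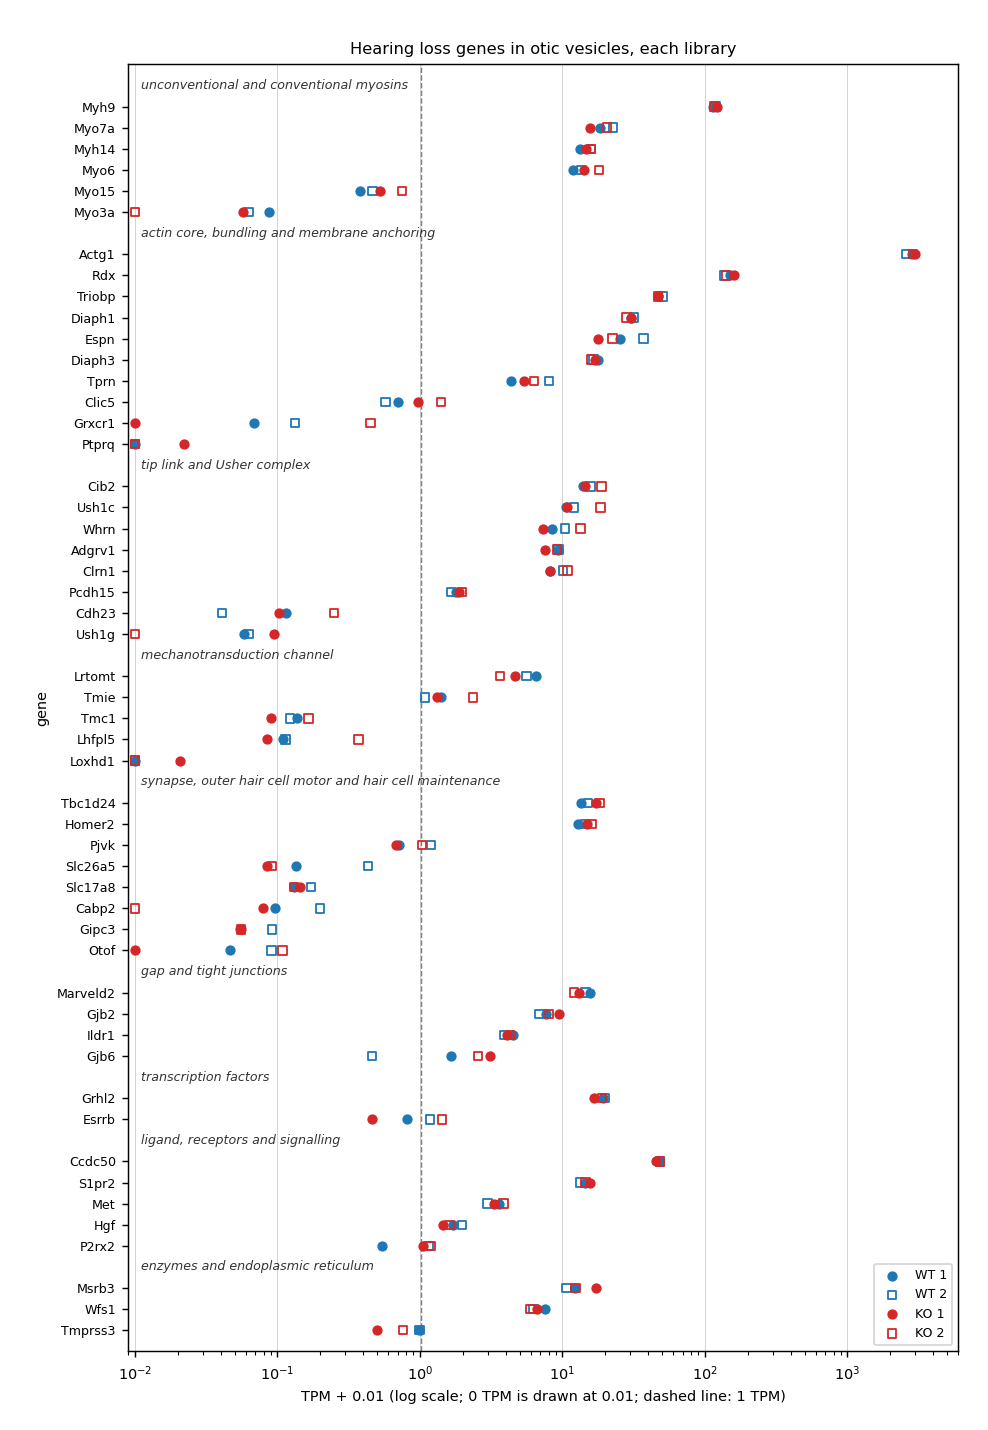
Level of each of the 51 hearing loss genes (TPM + 0.01, log axis) in WT 1, WT 2, KO 1 and KO 2, grouped by role; the dashed line marks 1 TPM and genes listed at 0 sit at the left edge. Levels span from 0 to 2975 TPM. The 4 libraries of a gene spread most at low levels, but some genes above 1 TPM also spread, as did Espn (17.6 to 37.0 TPM) and Whrn (7.27 to 13.4 TPM).

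Promoter base composition was set beside these levels. Promoter windows of 300 bases, 250 before to 50 after a transcription start, were taken from RefSeq (GRCm38.p6), and 44 of the 51 genes had at least 1, with 57 windows in all. The measure is the observed over expected frequency of the dinucleotide CpG, which is high in the CpG islands of broadly active genes and low elsewhere. The 4 windows printed here were chosen to show this contrast. They are the highest member Actg1 (chr11:120348543-120348745), the neighbouring connexin genes Gjb2 (chr14:57104703-57104952) and Gjb6 (chr14:57133612-57133861), and the tip-link gene Cdh23 (chr10:60696491-60696740). All are on the minus strand, read 5′ to 3′ towards the start, with CpG in capitals. The Actg1 run stops 47 bases short of the RefSeq start, where GENCODE places a transcribed end of the gene, and its first 68 bases overlap an exon of 0610009L18Rik on the other strand; the other 3 runs overlap no annotated exon.
Actg1: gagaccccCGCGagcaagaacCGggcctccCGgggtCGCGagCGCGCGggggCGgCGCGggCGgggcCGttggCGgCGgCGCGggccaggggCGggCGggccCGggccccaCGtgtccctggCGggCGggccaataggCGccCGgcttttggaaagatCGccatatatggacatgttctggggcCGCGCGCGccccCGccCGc
Gjb2: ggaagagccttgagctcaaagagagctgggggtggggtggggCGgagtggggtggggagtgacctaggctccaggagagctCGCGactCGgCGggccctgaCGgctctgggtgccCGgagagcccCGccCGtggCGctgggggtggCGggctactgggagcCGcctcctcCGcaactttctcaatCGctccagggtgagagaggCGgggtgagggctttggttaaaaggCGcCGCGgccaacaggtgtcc
Gjb6: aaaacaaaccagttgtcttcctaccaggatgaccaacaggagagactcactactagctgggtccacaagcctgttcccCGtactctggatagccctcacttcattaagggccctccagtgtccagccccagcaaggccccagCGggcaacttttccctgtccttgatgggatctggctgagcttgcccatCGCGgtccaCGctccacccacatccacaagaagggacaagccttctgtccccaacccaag
Cdh23: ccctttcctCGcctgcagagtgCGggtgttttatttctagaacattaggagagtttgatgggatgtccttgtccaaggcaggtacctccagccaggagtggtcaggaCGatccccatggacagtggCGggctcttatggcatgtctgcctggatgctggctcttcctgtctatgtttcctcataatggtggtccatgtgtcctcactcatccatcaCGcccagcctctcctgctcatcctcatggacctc
The printed Actg1 run held 33 CpG in 203 bases and that of Gjb2 18 in 250, whereas those of Gjb6 and Cdh23 held 5 each. Over the whole windows the observed over expected ratio was 1.12 for Actg1, 0.76 for Gjb2, 0.25 for Gjb6 and 0.23 for Cdh23.

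Among members at 10 TPM or more in WT the median ratio was 0.63, and 9 of 17 reached 0.6, where 79.1% of coding genes at that level did. At 1 to 10 TPM the median was also 0.63, with 7 of 13 members at 0.6 or above and 49.3% of coding genes. Below 1 TPM the median was 0.34, with 4 of 14 members and 11.4% of coding genes at 0.6 or above. Among the members only the class below 1 TPM thus had a lower median, and single genes varied within each class. Myo7a (0.23), Espn (0.27), Ush1c (0.33) and Rdx (0.44) had CpG-poor windows at levels above 10 TPM. Cib2 (0.54), Homer2 (0.56), Myh14 (0.58) and Tbc1d24 (0.58) were also under 0.6 at such levels. Gipc3 (0.79), Clic5 (0.75), Lhfpl5 (0.75) and Slc26a5 (0.71) had CpG-rich windows below 1 TPM. These values describe the sequence only and were not tested.

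**Figure D3:**
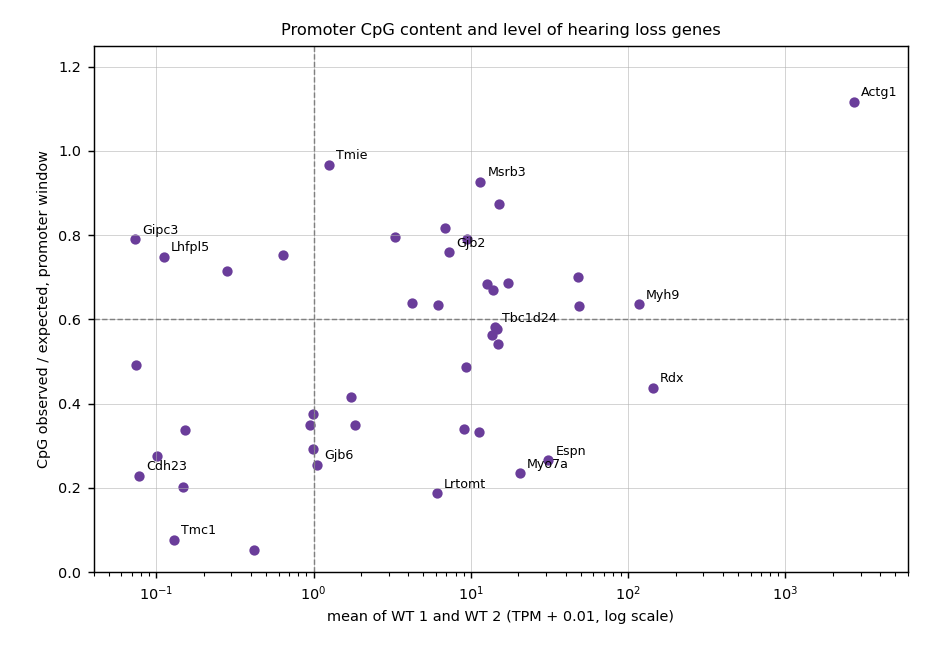
CpG observed over expected in the RefSeq promoter windows of 44 hearing loss genes (mean over a gene's windows) against the mean of both WT libraries (TPM + 0.01, log axis); dashed lines mark a ratio of 0.6 and 1 TPM. Of the 14 genes below 1 TPM, 4 lie at a ratio of 0.6 or above, and of the 17 at 10 TPM or more, 9 do.

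Of the 6 myosins, 4 were at 1 TPM or more in WT and the other 2 far below it. Myh9 (ENSMUSG00000022443.17, chromosome 15), a non-muscle myosin of the cell cortex, was at 114, 119, 121 and 116 TPM. Its relative Myh14 was lower, at 13.3, 15.9, 14.6 and 15.8 TPM. The libraries of both genes overlapped between genotypes. Myo7a, the motor that carries Usher proteins in the stereocilia, was at 18.3, 22.5, 15.6 and 20.5 TPM. Myo6, which anchors the base of the stereocilia, was at 11.8, 13.6, 14.1 and 18.0 TPM, with KO 2 highest. By contrast, Myo15, which brings cargo to the stereocilia tips, stayed at 0.37 to 0.74 TPM, and Myo3a, another tip myosin, at 0 to 0.077 TPM.

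Actin and its partners held the highest levels of the list. Actg1 (ENSMUSG00000062825.15, chromosome 11, 120345690 to 120348542), cytoplasmic gamma actin, was at 2850, 2594, 2975 and 2883 TPM. It alone made up 79.1% to 81.6% of the summed TPM of the 51 genes. Of its transcript sequence, 39.0% in 31-base words recurs in other genes, most of it in the pseudogene Gm12715, so this level is uncertain. Rdx, which encodes radixin, a linker of actin to the membrane, was at 150, 137, 159 and 141 TPM. Triobp, whose product bundles the actin of the stereocilia rootlets, was at 46.8, 50.6, 46.9 and 46.8 TPM. Diaph1 and Diaph3 encode formins, which elongate actin filaments. Diaph1 was at 30.4, 31.7, 30.5 and 28.2 TPM and Diaph3 at 17.7, 16.5, 17.0 and 15.8 TPM. Espn, the actin bundler espin, was at 25.1, 37.0, 17.6 and 22.5 TPM, so that both KO libraries lay below both WT libraries. Tprn, a protein of the stereocilia base, was at 4.34, 8.07, 5.35 and 6.28 TPM. The remaining genes were low: Clic5, found near radixin at the stereocilia base, at 0.56 to 1.39 TPM, Grxcr1, which affects bundle growth, at 0 to 0.44 TPM, and Ptprq, a phosphatase of the stereocilia shaft, at 0 to 0.012 TPM. In this group 7 of 10 genes were at 1 TPM or more.

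The tip link and Usher genes were present in part. Of the cadherins that make up the tip link itself, Pcdh15 was at 1.79, 1.64, 1.86 and 1.96 TPM, and Cdh23 at 0.10, 0.031, 0.093 and 0.24 TPM. Pcdh15 was above Cdh23 in each library. The scaffold Ush1c (harmonin) was at 10.6, 12.1, 10.7 and 18.4 TPM, whereas Ush1g, a scaffold that binds harmonin, was at 0 to 0.084 TPM. Cib2, a calcium-binding partner of the transduction channel, was at 13.9, 15.7, 14.5 and 18.7 TPM. KO 2 was the highest library for Ush1c and Cib2. Whrn, the scaffold whirlin, was at 8.50, 10.4, 7.27 and 13.4 TPM. Adgrv1, a very large adhesion receptor that forms ankle links, was at 9.30, 9.37, 7.50 and 9.17 TPM, and Clrn1, a membrane protein mutated in Usher syndrome, at 8.11, 10.1, 8.22 and 10.9 TPM. In all, 6 of these 8 genes were at 1 TPM or more. KO 2, the highest library for Ush1c and Cib2, was also the highest for Pcdh15, Cdh23, Whrn and Clrn1, but not for Ush1g and Adgrv1. Of the Cib2 transcript sequence, 14.5% recurs elsewhere, nearly all of it in the opposite-strand gene Sh2d7, which was at 0.020 TPM or less.

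Genes of the transduction channel itself were mostly low. Tmc1, which forms its pore, was at 0.13, 0.11, 0.080 and 0.15 TPM, and Lhfpl5, an accessory subunit, at 0.099, 0.10, 0.074 and 0.36 TPM. Tmie, another subunit, was at 1.41, 1.08, 1.31 and 2.34 TPM, next above Gjb6 in the order of WT levels. Of its transcript sequence 6.99% recurs in the opposite-strand gene Als2cl. Loxhd1, needed for the channel's function in mature hair cells, was at 0.011 TPM in KO 1 and listed at 0 in the other libraries. The human gene LRTOMT corresponds to separate mouse loci, and the symbol Lrtomt is a RefSeq synonym of Lrrc51, which was at 6.51, 5.60, 4.60 and 3.64 TPM. This value is uncertain, since 42.4% of the Lrrc51 transcript sequence recurs in the opposite-strand gene Lamtor1 and the use of strand is not stated. The other mouse locus, Tomt, was at 0.41, 0.87, 0.55 and 0.75 TPM, below 1 TPM in every library. So 2 of 5 genes were at 1 TPM or more with Lrtomt read as Lrrc51 and 1 of 5 with it read as Tomt, which would make the whole list 31 of 51.

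Of the synaptic and maintenance genes of mature hair cells, 6 of 8 were below 1 TPM in WT. Otof, the calcium sensor otoferlin of the hair cell synapse, was at 0 to 0.099 TPM. Slc17a8, which loads glutamate into synaptic vesicles, was at 0.12 to 0.16 TPM, and Cabp2, a regulator of the synaptic calcium channel, at 0 to 0.19 TPM. Slc26a5, which encodes prestin, the motor of outer hair cells, was at 0.13, 0.42, 0.075 and 0.081 TPM. Gipc3, a scaffold protein of hair cells, was at 0.045 to 0.082 TPM. Pjvk, which encodes pejvakin, was just below 1 TPM in WT, at 0.70, 1.19, 0.66 and 1.02 TPM. In contrast, Homer2, a scaffold of calcium signalling, was at 12.7, 14.4, 14.8 and 16.2 TPM, and Tbc1d24, a regulator of vesicle traffic, at 13.5, 15.0, 17.2 and 18.2 TPM. For both, each KO library was above each WT library.

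All 4 junction genes were at 1 TPM or more in WT. Gjb2, the most often mutated deafness gene in many populations, encodes a connexin, a gap junction subunit, and was at 7.66, 6.89, 9.38 and 8.01 TPM. Its chromosome 14 neighbour Gjb6 encodes another connexin that pairs with it in the cochlea, and was at 1.64, 0.45, 3.11 and 2.55 TPM. The pair is separated by 18600 bases, with 1 further gene of the table between them (Gm4491, at most 0.17 TPM). As the printed windows show, their promoters differ in CpG content. Marveld2, which encodes tricellulin, was at 15.5, 14.5, 13.1 and 12.1 TPM. Ildr1, which recruits tricellulin to the corners where 3 cells meet, was at 4.50, 3.92, 4.09 and 4.29 TPM.

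The other members regulate or signal. Grhl2, a transcription factor of epithelial cells, was at 19.4, 19.9, 16.6 and 19.0 TPM. Esrrb, an orphan nuclear receptor of the inner ear's ion-transporting epithelium, lay just below 1 TPM in WT, at 0.81, 1.16, 0.45 and 1.42 TPM. The ligand Hgf was at 1.69, 1.97, 1.45 and 1.60 TPM and its receptor Met at 3.57, 2.97, 3.31 and 3.85 TPM. S1pr2, a receptor for sphingosine phosphate, was at 14.5, 13.3, 15.5 and 14.5 TPM, and Ccdc50, an effector of growth factor signalling, at 47.8, 48.5, 45.5 and 48.3 TPM. The ATP-gated channel P2rx2 was at 0.53, 1.14, 1.04 and 1.18 TPM. Msrb3, which repairs oxidised methionine, was at 12.3, 10.7, 17.1 and 12.4 TPM, with KO 1 highest. Wfs1, which encodes wolframin of the endoplasmic reticulum, was at 7.49, 6.23, 6.67 and 5.98 TPM. The serine protease Tmprss3 was at 0.98 TPM in both WT libraries, 0.49 in KO 1 and 0.75 in KO 2, and both KO libraries were the lower.

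Meis2 itself was at 79.0, 88.7, 73.2 and 76.6 TPM, with a KO minus WT value of -0.16 log2 units (SE 0.087, limma adjusted p = 1.00). A gene-level value cannot show whether part of the gene is missing, so it does not check the genotype labels, and KO stands for the libraries labelled as Meis2 mutant. No hearing loss gene passed the test between these libraries and WT. The test was limma on log2(TPM + 1), over the 14496 genes that averaged 1 TPM or more, with Benjamini-Hochberg adjustment; 32 of the 51 members entered it, and 0 passed an adjusted p of 0.05. Over all genes 0% passed, so the absence of calls is not particular to these genes. At an unadjusted limma p below 0.05 there were 2 of the 32 members, Tbc1d24 and Gjb6, against 507 of the 14496 genes tested (3.50%). Differences were small: 22 of 32 members (68.8%) differed by less than 0.2 on the log2 scale, as did 76.7% of all tested genes. The median difference, KO minus WT, was 0.058 for the members and 0.035 for all genes. That of the members was -0.0068 without WT 1 and -0.027 without KO 2, so its sign rests on those libraries. The lowest adjusted p among the members was 1.00.

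Genotypes without overlap were counted as a description. Both KO libraries were above both WT libraries for 9 of 32 members (28.1%), against 19.2% of all genes. They were below for 6 (18.8%), against 10.5% of all genes. Median-of-ratios scaling turned these counts round, to 6 higher (18.8%), against 13.6% of all genes, and 9 lower (28.1%), against 14.8%. The excess of higher over lower members therefore depends on how the libraries were scaled.

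**Figure D4:**
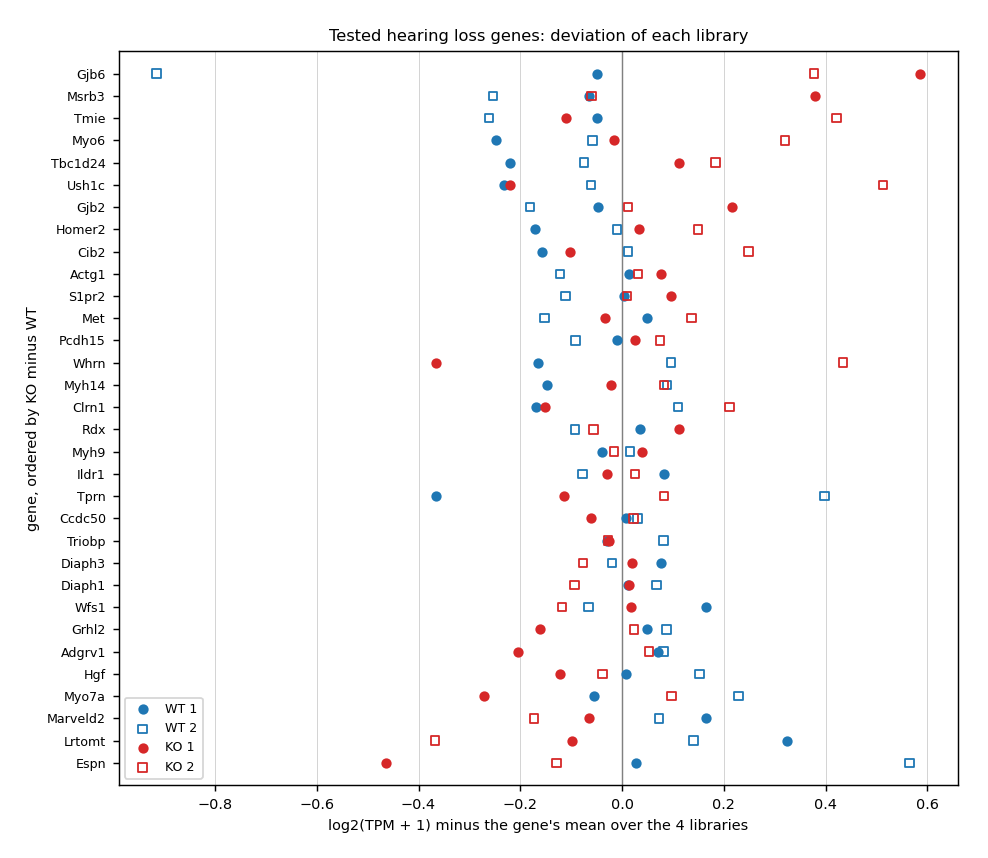
Deviation of each library from the gene's own mean, in log2(TPM + 1), for the 32 tested hearing loss genes, ordered by KO minus WT; blue is WT, red is KO, filled circles are replicate 1 and open squares replicate 2. The genotypes overlap for 17 of the 32 genes, and Gjb6 and Espn lie at the ends.

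The 8 members with the smallest p are given with their differences. Tbc1d24 (chromosome 17, 24175431 to 24205562) averaged 14.3 ± 1.09 TPM in WT and 17.7 ± 0.669 in KO (SD, n = 2 each). KO minus WT was 0.30 log2 units (SE 0.11, limma adjusted p = 1.00). Gjb6 (chromosome 14, 57123303 to 57133611) averaged 1.05 ± 0.844 TPM in WT and 2.83 ± 0.391 in KO (SD, n = 2 each), with a log2 difference of 0.96 (SE 0.36, limma adjusted p = 1.00). The size for Gjb6 rests on WT 2, its lowest library: the difference was 0.53 without WT 2 and 1.40 without WT 1. As a low gene it also moved with the pseudocount, to 1.57 at 0.1 TPM and 0.38 at 5 TPM. Gjb2 (chromosome 14, 57098600 to 57104702) was higher in KO by 0.23 (SE 0.15, limma adjusted p = 1.00), and by 0.13 without KO 1. KO 1, the highest library for both connexin genes, also held the highest sum of surface ectoderm genes (23.4, 24.3, 28.8 and 12.4 TPM). It was the highest as well for the mesenchyme, endothelium, macrophage, and neural crest and glia lists. KO 2, where both connexin genes were also above both WT libraries, held the lowest surface ectoderm sum. Within the surface ectoderm list Krt5 (3.28 TPM), Krt14, Krt17 and Trp63 were highest in KO 1, and Krt15, Perp, Tfap2c and Wnt6 in other libraries. The part of these cells was not tested. Gja1, a gap junction gene of another connexin class named here after its values were seen, stood at 18.2 to 19.1 times the level of Gjb2 in every library.

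Espn (chromosome 4, 152120331 to 152152371) averaged 31.1 ± 8.35 TPM in WT and 20.0 ± 3.44 in KO (SD, n = 2 each). KO minus WT was -0.59 log2 units (SE 0.22, limma adjusted p = 1.00). This value was -0.32 when WT 2 was left out and -0.86 when WT 1 was. WT 2, the highest library for Espn, was also the highest for the erythroid and skeletal muscle lists. The otic epithelium sum was highest in WT 1 (1826 TPM), but in WT 2 (950 TPM) once the gene Oc90 was left out. The part of any of these cells in the difference was not tested. Lrtomt, read as Lrrc51 (chromosome 7, 101912984 to 101933895), was lower in KO by a log2 difference of -0.47 (SE 0.18, limma adjusted p = 1.00). The sequence that Lrrc51 shares with Lamtor1 makes this value uncertain. Tomt, the other locus, averaged 0.64 TPM in WT and 0.65 in KO, too low to enter the test, so the difference holds for Lrrc51 only. Marveld2 (chromosome 13, 100595957 to 100616971) averaged 15.0 ± 0.717 TPM in WT and 12.6 ± 0.716 in KO (SD, n = 2 each). Here KO minus WT was -0.24 log2 units (SE 0.11, limma adjusted p = 1.00). The summed otic epithelium markers were also lower in both KO libraries, by 16.8% of the WT sum, most of it from Oc90, an otoconial protein gene. Without Oc90 the other 14 genes summed to 914, 950, 841 and 907 TPM, a KO sum that fell by 6.24%. Without overlap, 7 of the 15 genes were lower in KO and 0 higher, against 10.5% and 19.2% of all genes tested. This marker count was taken on the deposited values only, not after median-of-ratios scaling. The part of these markers in the Marveld2 value was not tested.

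Myo6 (chromosome 9, 80165031 to 80311729) differed by 0.31 on the log2 scale (SE 0.16, limma adjusted p = 1.00), but by 0.14 without KO 2 and 0.47 without KO 1. Msrb3 (chromosome 10, 120781096 to 120899101) differed by 0.32 (SE 0.19, limma adjusted p = 1.00), by 0.099 without KO 1 and by 0.54 without KO 2. KO 2 held the highest sum of neuron genes and KO 1 the highest of mesenchyme genes, and the part of these cells was not tested. For neither gene did the sign change when a library was left out.

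The promoters of the members were searched on both strands for TGACAG, the core that MEIS proteins bind. It was in 9 of 57 windows (15.8%), against 19.2% of all 32851 RefSeq windows. Of the 8 members with the smallest p, Espn and Tbc1d24 had a match, and these windows are printed to show where it lies. Each starts inside the annotated span of its gene, overlaps no annotated exon, and belongs to 1 of several starts, the second of 3 for Espn (chr4:152136326-152136575) and the second of 2 for Tbc1d24 (chr17:24199958-24200207). Both are on the minus strand, with the match in capitals.
Espn: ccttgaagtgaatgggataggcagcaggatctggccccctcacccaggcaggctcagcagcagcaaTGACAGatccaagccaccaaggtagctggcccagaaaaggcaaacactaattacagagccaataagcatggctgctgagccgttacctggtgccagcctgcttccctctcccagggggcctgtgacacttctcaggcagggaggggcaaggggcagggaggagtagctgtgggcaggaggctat
Tbc1d24: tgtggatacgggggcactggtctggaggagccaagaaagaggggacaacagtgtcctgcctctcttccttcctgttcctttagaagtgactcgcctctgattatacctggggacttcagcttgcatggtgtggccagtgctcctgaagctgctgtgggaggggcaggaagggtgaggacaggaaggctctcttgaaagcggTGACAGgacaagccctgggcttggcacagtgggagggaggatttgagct
The match begins 184 bases before the start in Espn, which was lower in KO, and 49 bases before it in Tbc1d24, which was higher. A GRHL-type site, AACCGGTT, was in 0 of 57 windows and 0.146% of all. A TATA box written as TATAAA was in 6 of 57 (10.5%) and 13.6% of all. A match is a string of letters in these windows and shows no binding.

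Family members of the hearing loss genes were the higher of the pair in some cases and the lower in others, as the plot of gene pairs shows. Actb, the other cytoplasmic actin, was at 1.13 to 1.29 times Actg1. Ezr and Msn, which encode the other proteins of radixin's family, were at 0.44 to 0.52 and 0.38 to 0.43 times Rdx, so Rdx was the highest of the family in all 4 libraries. Myh10 was at 1.37 to 1.66 times Myh9. For 6 hearing loss genes below 1 TPM a relative was at 10 TPM or more in WT. Gipc1 was at 133 TPM beside 0.063 for Gipc3. Clic1 and Clic4 were at 139 and 122 TPM beside 0.63 for Clic5. Lhfpl2 was at 29.0 TPM beside 0.10 for Lhfpl5, Cdh1 (the epithelial cadherin) at 25.4 beside 0.068 for Cdh23, Esrra at 14.4 beside 0.98 for Esrrb, and Myof at 10.5 beside 0.058 for Otof. The opposite held for Espn over its relative Espnl (31.1 and 0.15 TPM), for Grhl2 over Grhl1 and Grhl3 (19.6, 1.00 and 0.18 TPM), for Diaph1 over Diaph2 (31.1 and 2.48 TPM) and for S1pr2 over S1pr1 (13.9 and 6.22 TPM).

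**Figure D5:**
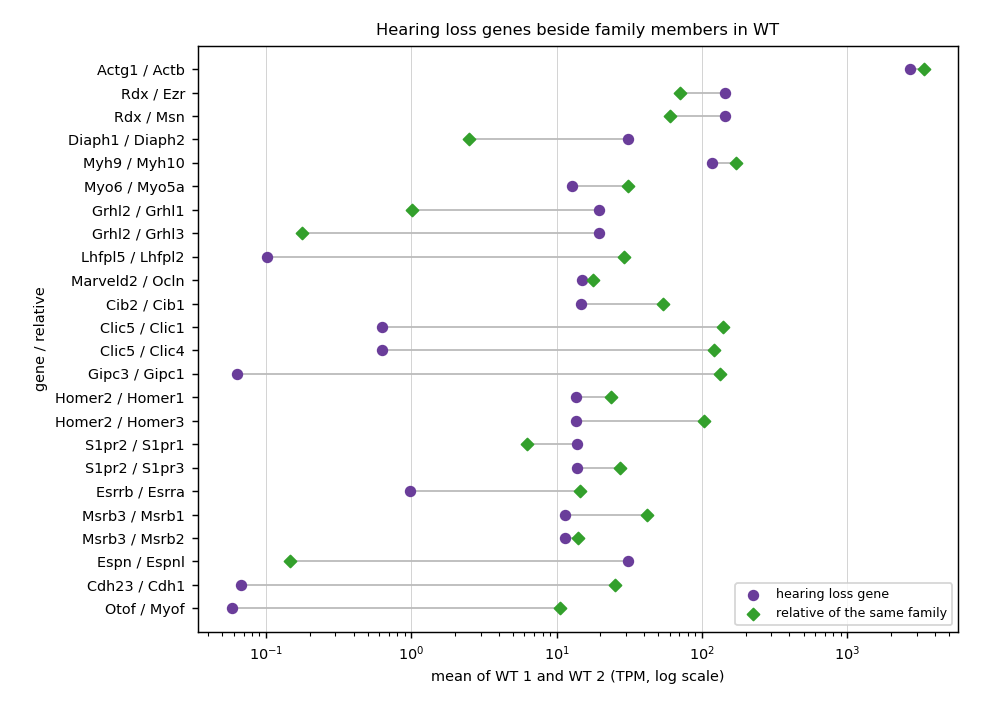
Mean of both WT libraries (TPM, log axis) for 24 pairs of a hearing loss gene (violet circles) and a relative of its family (green diamonds). Gipc3, Clic5, Lhfpl5, Esrrb, Cdh23 and Otof lie below 1 TPM beside relatives at 10 TPM or more.

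The pairs of members at 10 TPM or more not yet given all had the higher relative in WT, because those with the lower relative are listed above. Homer3 (103 TPM) and Homer1 (23.7) were above Homer2 (13.6), Cib1 (53.6) above Cib2 (14.8), Msrb1 (41.7) and Msrb2 (13.9) above Msrb3 (11.5), Myo5a (31.2) above Myo6 (12.7), S1pr3 (27.4) above S1pr2 (13.9), and Ocln (17.8) above Marveld2 (15.0). The order of Msrb2 and Msrb3 turned in KO 1, where Msrb2 was at 0.88 times Msrb3.

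A further 76 hearing loss genes outside the 51 were also examined. Of these, 61 (80.3%) were at 1 TPM or more in WT, 42 at 10 TPM or more, and the median was 12.3 TPM. Among the highest were Col2a1, a cartilage collagen, at 570 ± 11.5 TPM, and Kars at 187 ± 10.1 and Lars2 at 187 ± 14.2, which encode enzymes that charge transfer RNA (SD, n = 2 each). In the libraries labelled as Meis2 mutant 0 of the 62 tested passed the threshold (limma, lowest adjusted p = 1.00). Of the 62, 7 (11.3%) had an unadjusted limma p below 0.05, against 3.50% of all genes tested. These genes were chosen with earlier results of these data known. This share and the overlap counts below therefore cannot be read as traits of the disease class. The 4 with the smallest p were Lars2 (log2 difference -0.74, SE 0.10), Otoa (1.16, SE 0.18), Lmx1a (-0.28, SE 0.067) and Col2a1 (0.24, SE 0.071), each without overlap between genotypes. Otoa encodes otoancorin, which attaches gels to the ear's epithelium, and was at 2.11 and 1.75 TPM in WT and 5.33 and 5.77 in KO. Of the 62, 6 (9.68%) were higher without overlap, against 19.2% of all genes, and 9 (14.5%) lower, against 10.5%. After median-of-ratios scaling the counts were again 6 and 9, against 13.6% and 14.8% of all genes. Their median difference was 0.055.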

How the data were processed

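RNA from otic vesicles was sequenced in 2 WT and 2 KO libraries, grouped and numbered by the sample titles. The authors deposited gene-level TPM, which keeps no depth, so no counting interval is given. Salmon 0.9.1 and the build GRCm38 are named in the submitters' processing notes. The sources used here do not give the annotation, the strand use or the summing to genes. All values are whole steps of the last printed digit after multiplication by 4 (WT 1, WT 2, KO 1) or 3 (KO 2), as means of 4 and 3 values would be.

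Gene IDs were matched to GENCODE M21, which named 34652 of 34866. Of the 51 members 50 matched by symbol. Genes averaging 1 TPM or more entered limma 3.58.1 (R 4.3.3) as log2(TPM + 1) values, with genotype alone in the model, a variance trend, two-sided p and Benjamini-Hochberg adjustment at 0.05; the script was tested on simulated data. Differences understate changes of low genes. Shared sequence was counted in 31-base words of GENCODE transcripts. The members and all lists were chosen with earlier results of these data known. Levels in every library are given for members at 10 TPM or more in WT, well-known lower ones and those next to 1 TPM; differences are given for the 8 smallest p. Of the other hearing loss genes, those highest in WT and those with the smallest p are named, except an item that is not reported here. The overlap counts under median-of-ratios scaling, Lrtomt read as Tomt and the otic sum without Oc90 were chosen after seeing the data. Other alternatives were pseudocounts, filters, scaling, variance moderation, a replicate block and leaving out each library.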

Additional observations from a re-analysis of the deposited data

How the results depend on the processing

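No hearing loss gene passed the threshold under any of the 12 alternatives of the fit, and the sign of each of the 8 named differences was the same in each alternative that gave a value. Leaving out 1 library in turn gave 0 to 10 calls over all genes (0 without either WT library, 2 without KO 1 and 10 without KO 2), with the lone library assumed to vary like the others. The other alternatives gave 0 calls. The median difference of the members was 0.0076 with no filter, 0.025 with median-of-ratios scaling and 0.0093 with quantile normalization, and -0.027 to 0.066 when a library was left out. The cause of these shifts was not tested. The replicate numbers share only a label. With the replicate block 0 genes were called, 1178 had an unadjusted p below 0.05 against 507 without it, and the lowest adjusted p of a member was 0.489. Deviations of same-numbered libraries had a correlation of 0.42 over genes, from 2 pairs. The number of members at 1 TPM or more in WT ran from 28 at a limit of 2 TPM to 37 at 0.5 TPM. Unknown depth limits what can be said of genes below 1 TPM.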
